A study of Homo sapiens with 8 samples.

Results

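The genes described are the 8 that encode the AP-1 transcription factors of the FOS and JUN families and the factor EGR1: FOS, FOSB, FOSL1, FOSL2, JUN, JUNB, JUND and EGR1. They were taken by symbol from a deposited table of 57905 genes, where each has 1 row. Transcripts were sequenced from DU145 and PC3, long-established human prostate cancer lines, DU145 from a tumour that had spread to the brain and PC3 from one in bone. The 4 groups were DU145 with a lentivirus that adds TRIB1, DU145 with an empty lentivirus (control), PC3 with the TRIB1 lentivirus and PC3 with the empty lentivirus (control), with 2 libraries in each. All cells were kept at 37 °C in 5% CO2. Every group carries a lentivirus, the promoter that drives TRIB1 is not given in the sources used here, and neither is the time between infection and harvest. Whether the 2 libraries of a group are separate cultures is not in the labels, so the spread behind each p-value may be technical only. In such bulk RNA, fewer cells that express a gene and less of its RNA per cell cannot be told apart.

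AP-1 is a dimer of bZIP proteins, which grip DNA with a basic region and each other with a leucine zipper. JUN proteins pair with themselves or with a FOS protein, whereas FOS proteins need a JUN partner. FOS, FOSB, JUN, JUNB and EGR1 are immediate early genes, switched on within minutes by growth factor or stress signals through the ERK, JNK and p38 kinases. FOSL1 (Fra-1) and FOSL2 (Fra-2) are induced later, lack the strong activation domain of FOS and are often abundant in invasive carcinoma cells. EGR1 is a zinc finger factor that serum response factor induces together with FOS. TRIB1 is a pseudokinase adaptor of the ubiquitin ligase COP1, and COP1 is also a ligase of the JUN protein. Only transcripts were measured here, so protein levels were not observed.

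The values are TPM, transcript abundances scaled to gene length and to the same total in every library. Library depth is therefore unknown, and no counting interval was computed. TRIB1 itself was at 69.4 and 62.3 TPM in DU145 TRIB1 cells, against 10.1 and 7.94 TPM in DU145 control cells (log2 change 2.75). It was at 241 and 245 TPM in PC3 TRIB1 cells, against 45.1 and 50.8 TPM in PC3 control cells (log2 change 2.32). The epithelial keratin genes KRT8 and KRT18 were between 199 and 725 TPM in all 8 libraries, the leukocyte genes PTPRC and CD3E stayed below 0.468 TPM, and the prostate secretory gene KLK3 was at most 0.187 TPM. The second DU145 TRIB1 library stands apart from the rest: the short RNAs RN7SL1 and RN7SL2 took 3.17% of its TPM, against 1.27% to 2.24% in the other 7 libraries.

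The promoters shown are those of the members that passed the test in PC3, since the results turn on these genes. Each is the 250 bases before the gene start in RefSeq (GRCh38.p14), written 5′ to 3′ on the strand of the gene. RefSeq promoters were matched for 7 of the 8 members. The window of EGR1 lies at chr5:138465229-138465478 on the plus strand, that of JUN at chr1:58784048-58784297 on the minus strand and that of JUNB at chr19:12791236-12791485 on the plus strand. Capitals mark the CArG boxes bound by serum response factor in EGR1, the variant AP-1 site TGACATCA in JUN, and the core TGACG of the cyclic AMP response element and the TATA box TATAAA in JUNB.
EGR1: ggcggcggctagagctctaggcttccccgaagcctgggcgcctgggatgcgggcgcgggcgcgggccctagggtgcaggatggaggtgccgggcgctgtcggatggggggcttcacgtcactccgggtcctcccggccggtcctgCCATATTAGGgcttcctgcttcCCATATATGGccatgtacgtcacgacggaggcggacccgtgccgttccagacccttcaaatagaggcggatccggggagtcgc
JUN: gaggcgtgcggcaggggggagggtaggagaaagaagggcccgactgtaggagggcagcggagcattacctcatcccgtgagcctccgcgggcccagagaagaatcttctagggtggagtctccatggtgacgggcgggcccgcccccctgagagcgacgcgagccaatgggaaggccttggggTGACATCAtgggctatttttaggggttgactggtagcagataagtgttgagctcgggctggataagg
JUNB: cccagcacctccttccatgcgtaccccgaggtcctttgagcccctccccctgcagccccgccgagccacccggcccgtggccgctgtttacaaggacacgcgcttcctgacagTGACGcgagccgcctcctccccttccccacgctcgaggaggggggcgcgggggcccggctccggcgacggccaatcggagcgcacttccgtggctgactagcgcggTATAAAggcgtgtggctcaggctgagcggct

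The motifs were searched on both strands, the TATA box on the gene's strand alone. EGR1 held 2 CArG boxes, which begin 105 and 83 bases before its start. At least 1 CArG box was present in 1.16% of 35116 promoters of this length, more than 1 in 0.0313%, and none was found in this window of the other 6 matched members. JUN held TGACATCA 67 bases before its start, a sequence present in 2.37% of promoters and in no other matched member. The core TGACG was found in all 7, against 21.2% of promoters, and JUND carried the full palindrome TGACGTCA, which overlaps 2 of its 3 matches to the core. TATAAA was found in FOS, FOSB and JUNB, against 6.8% of promoters. EGR1 alone of the 7 matched the EGR site GCGNGGGCG, which 8.41% of promoters hold, and the canonical AP-1 site TGACTCA, held by 4.2%, was in none of the 7 windows. These matches are descriptions of letters and were not measured for binding.

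The members fall into a set of abundant and a set of scarce transcripts. FOSL1, FOSL2, JUN, JUNB and JUND were at 21.4 TPM or more in every library, and FOS, FOSB and EGR1 at 4.75 TPM or less. In DU145 TRIB1 cells the order of the means was FOSL2, JUND, FOSL1, JUNB, JUN, EGR1, FOS and FOSB, and FOSL1 and JUNB overlapped between libraries. In DU145 control cells it was JUND, FOSL2, JUNB, FOSL1, JUN, EGR1, FOS and FOSB, with no overlap between neighbours. In PC3 TRIB1 cells FOSL1 came first, followed by JUNB, FOSL2, JUND, JUN, EGR1, FOSB and FOS, with EGR1 and FOSB overlapping. In PC3 control cells FOSL1 and JUNB led, JUN, FOSL2 and JUND overlapped in turn, and FOSB, FOS and EGR1 closed the order. FOSL1 ranked 260th in PC3 TRIB1 cells and 227th in PC3 control cells among the 25982 genes tested, against 3589th in DU145 TRIB1 cells and 4028th in DU145 control cells.

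**Figure D1:**
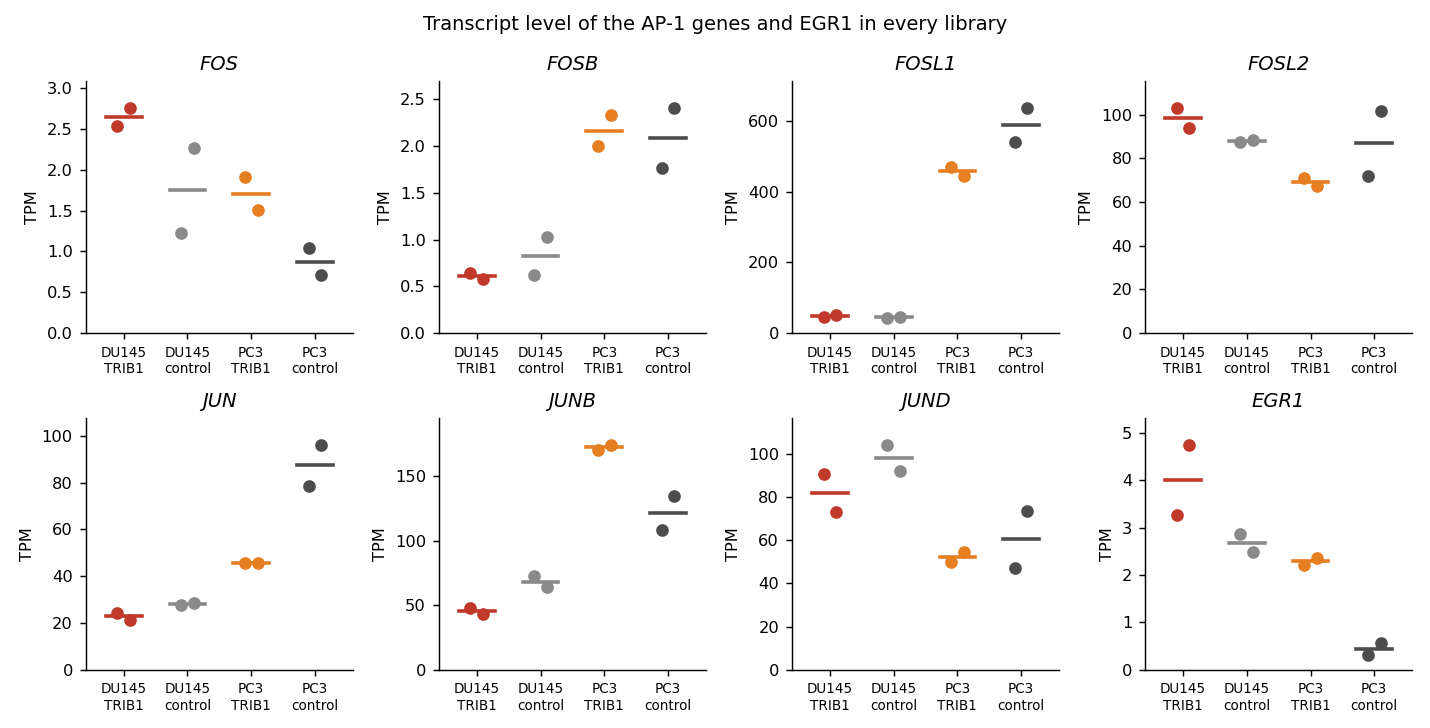
TPM (y axes, linear from 0) of each of the 8 genes in the 4 groups (x axes); each point is a library and each bar the mean of 2. JUN is lower and EGR1 higher in both PC3 TRIB1 libraries than in both PC3 control libraries, and FOSL1 is between 444 and 636 TPM in PC3 but between 42.2 and 50.8 TPM in DU145.

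TRIB1 against control in PC3 asked which of these genes differ when TRIB1 is raised in that line. In this line 3 of the 8 members passed the test: JUN fell, and JUNB and EGR1 rose. Over all genes tested, 17.0% passed (7.67% higher and 9.33% lower). Read against that share, 3 of 8 is not taken as a result about the members as a set. The median log2 change of the members was -0.06, beside -0.01 over all genes tested. The test was limma on log2(TPM + 1) with Benjamini-Hochberg adjustment over the 25982 genes, and a gene is said to have risen or fallen at an adjusted p below 0.05. Overlap of libraries between groups is given below as a description only, since the share of all genes without overlap was not computed.

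JUN (ENSG00000177606, chromosome 1) encodes c-Jun, the founding partner of AP-1 and the main substrate of the JNK kinases. It was at 45.6 and 45.8 TPM in PC3 TRIB1 cells, against 78.5 and 96.2 TPM in PC3 control cells. Both TRIB1 libraries lay below both controls, with means of 45.7 ± 0.102 TPM in TRIB1 cells and 87.4 ± 12.5 TPM in control cells (SD, n = 2 each), a ratio of 0.523. JUN fell by 0.91 on the log2 scale (SE 0.11, 95% interval -1.19 to -0.64, limma adjusted p = 0.0059). A change at least this large was seen in 13.4% of the genes tested. In all 17 alternative settings tried the fall passed the test, with adjusted p up to 0.0449.

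EGR1 (ENSG00000120738, chromosome 5) was scarce in PC3. It was at 2.21 and 2.37 TPM in PC3 TRIB1 cells, against 0.314 and 0.560 TPM in PC3 control cells. The libraries did not overlap, with means of 2.29 ± 0.109 TPM in TRIB1 cells and 0.437 ± 0.174 TPM in control cells (SD, n = 2 each), a ratio of 5.24. EGR1 rose by 1.2 on the log2(TPM + 1) scale (SE 0.21, 95% interval 0.69 to 1.71, limma adjusted p = 0.0159), a scale that understates the change of so low a gene. With a pseudocount of 0.1 TPM the change was 2.19. EGR1 was the only one of the 8 members with an absolute log2 change over 1 in PC3. The call ended when the first or the second TRIB1 library of PC3 was left out (adjusted p = 0.0716 and 0.0805), without the first PC3 control (0.0549), with each line fitted alone (0.0694) and with a replicate block (0.0660).

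JUNB (ENSG00000171223, chromosome 19) encodes a weaker activator that opposes JUN at many promoters. It was at 171 and 174 TPM in PC3 TRIB1 cells, against 108 and 135 TPM in PC3 control cells. Again the libraries did not overlap, with means of 173 ± 2.79 TPM in TRIB1 cells and 122 ± 19.0 TPM in control cells (SD, n = 2 each), a ratio of 1.42. JUNB rose by a log2 change of 0.51 (SE 0.12, 95% interval 0.21 to 0.81, limma adjusted p = 0.0418). This call lies near the threshold and was lost in 12 of 17 alternatives, among them leaving out any 1 library other than the second PC3 control (adjusted p 0.0740 to 0.175), the replicate block (0.0604) and upper-quartile scaling (0.0780). Of the 1820 exonic bases of JUNB in GENCODE 29, 259 (14.2%) are also exonic in HOOK2 on the opposite strand, and no strand setting is given for the counting. HOOK2 was at 90.1 and 75.2 TPM in PC3 TRIB1 cells, against 76.0 and 98.1 TPM in PC3 control cells, and its part in the JUNB value was not tested.

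The remaining 5 members did not pass in PC3. FOSL1 was at 469 and 444 TPM in PC3 TRIB1 cells, against 539 and 636 TPM in PC3 control cells, without overlap (log2 change -0.36, 95% interval -0.61 to -0.11, limma adjusted p = 0.0680). It passed without the first PC3 control (adjusted p = 0.0474), among genes over 5 TPM (0.0469) and with protein-coding genes alone (0.0319). FOS was at 1.91 and 1.51 TPM in PC3 TRIB1 cells, against 1.05 and 0.706 TPM in PC3 control cells, again without overlap (log2 change 0.53, 95% interval -0.07 to 1.13, limma adjusted p = 0.210). FOSL2 was at 71.3 and 67.5 TPM in PC3 TRIB1 cells, against 71.9 and 102 TPM in PC3 control cells. Its log2 change was -0.30 (95% interval -0.69 to 0.09, limma adjusted p = 0.276), and without the first PC3 control it passed (adjusted p = 0.0181). The intervals of FOSB (-0.48 to 0.56) and of JUND (-0.71 to 0.37) reach to both sides of 0. Beside these values, all 4 epithelial markers (KRT8, KRT18, EPCAM and CDH1) rose in PC3 TRIB1 cells, with a median log2 change of 1.54. Of the 3 fibroblast genes LUM rose and COL1A1 fell in PC3, and their part in the members' changes was not tested.

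The PC3 control libraries differed from each other in most members. The second held more than the first of FOSL1, FOSL2, JUN, JUNB, JUND, FOSB and EGR1, by ratios of 1.18 to 1.78, and less of FOS. JUND showed it most among the abundant genes, with 73.4 TPM in the second control and 47.2 TPM in the first. The median log2 difference between these libraries over all genes tested was 0, a signed value that does not show their spread. Their median absolute log2 difference was 0.196, against 0.139 in PC3 TRIB1 cells, 0.139 in DU145 control cells and 0.175 in DU145 TRIB1 cells. The share of all genes higher in the second PC3 control was not computed. The PC3 TRIB1 libraries lay closer together, with ratios of the second to the first between 0.79 for FOS and 1.17 for FOSB.

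**Figure D2:**
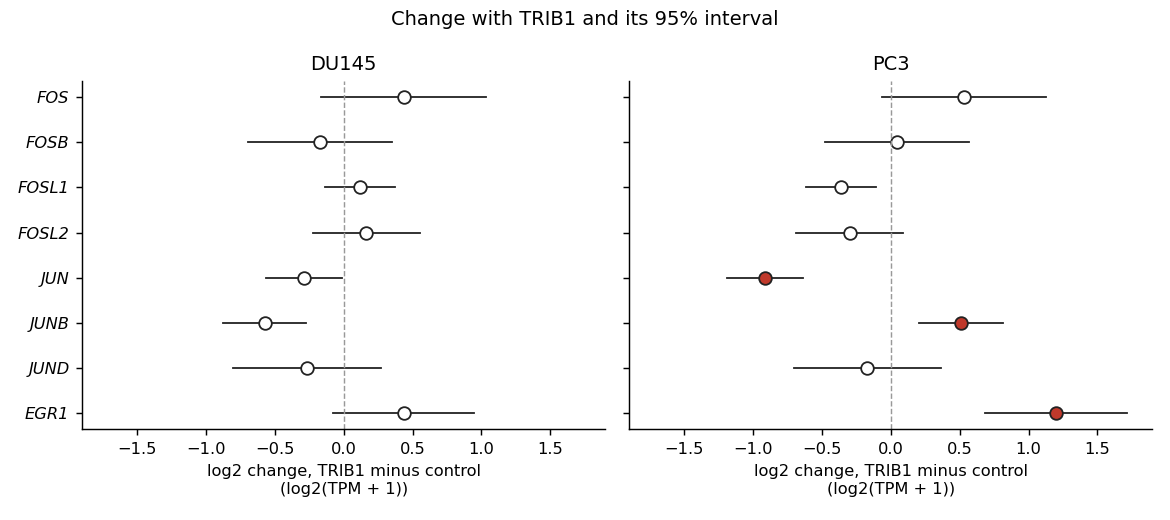
Log2 change of TRIB1 minus control on the log2(TPM + 1) scale (x axis) for the 8 genes (y axis) in DU145 (left) and PC3 (right), with its 95% interval from the limma fit; filled points have an adjusted p below 0.05. No point is filled in DU145, where JUNB has the change farthest from 0 (-0.58), and JUN (-0.91), JUNB (0.51) and EGR1 (1.2) are filled in PC3.

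TRIB1 against control in DU145 asked the same of the other line. Of the 8 members 0 passed limma's test after adjustment and 2, JUN and JUNB, had an unadjusted p below 0.05. Of all 25982 genes tested, 4599 had such an unadjusted p, so this count is not taken as a result about the members. The share of all genes that passed was 2.72% (0.712% higher and 2.01% lower), or 185 genes higher and 522 lower, against 238 and 347 with median-of-ratios scaling. The members' median log2 change was -0.03, beside -0.04 over all genes tested.

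JUNB was at 47.7 and 43.1 TPM in DU145 TRIB1 cells, against 72.4 and 63.9 TPM in DU145 control cells. The libraries did not overlap, and the log2 change was -0.58 (SE 0.12, 95% interval -0.88 to -0.27, limma adjusted p = 0.0792). With protein-coding genes alone, a setting chosen after the data were seen, it passed (adjusted p = 0.0217). HOOK2, which shares exonic bases with it, was at 50.9 and 47.6 TPM in DU145 TRIB1 cells, against 62.6 and 71.8 TPM in DU145 control cells, so it too was lower. JUN was at 24.2 and 21.4 TPM in DU145 TRIB1 cells, against 27.7 and 28.4 TPM in DU145 control cells (log2 change -0.29, 95% interval -0.57 to -0.02, limma adjusted p = 0.257). In neither gene did the TRIB1 and control libraries overlap, but nor did they in FOS, FOSL2, JUND and EGR1, which did not pass either. The share of all genes without overlap was not computed, so this is a description.

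EGR1 was at 3.27 and 4.75 TPM in DU145 TRIB1 cells, against 2.86 and 2.48 TPM in DU145 control cells. Both TRIB1 libraries were above both controls, but the higher value is that of the library with the large share of RN7SL1 and RN7SL2, and the change did not pass (log2 change 0.43, 95% interval -0.08 to 0.95, limma adjusted p = 0.361). Without that library it was 0.22. FOS was at 2.54 and 2.76 TPM in DU145 TRIB1 cells, against 1.23 and 2.27 TPM in DU145 control cells (log2 change 0.43, limma adjusted p = 0.437). FOSL1 was at 45.1 and 50.8 TPM in DU145 TRIB1 cells, against 42.2 and 46.0 TPM in DU145 control cells, which overlap. Its interval, -0.14 to 0.37 on the log2 scale, bounds the change in DU145 more tightly than that of any other member. FOSL2 was at 103 and 94.2 TPM in DU145 TRIB1 cells, against 87.4 and 88.4 TPM in DU145 control cells, and JUND at 90.7 and 72.8 TPM, against 104 and 92.2 TPM. In neither gene did the libraries overlap, and the share of all genes without overlap was not computed. Their limma adjusted p was 0.658 and 0.587, and that of FOSB, which stayed at or below 1.03 TPM in all 4 DU145 libraries, was 0.747.

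Whether the lines differ in their response was tested by the difference of the changes, DU145 minus PC3. Of the 8 members 1, JUNB, passed, against 9.37% of all genes tested (4.01% positive and 5.36% negative). JUNB had log2 changes of -0.58 in DU145 and 0.51 in PC3, a difference of -1.08 (SE 0.17, 95% interval -1.51 to -0.66, limma adjusted p = 0.0208). The difference kept its sign in all 16 alternatives run and lost the call in 7 of them, with adjusted p of 0.0519 to 0.0794, namely the replicate block and the omission of any 1 library other than a PC3 control. For JUN the changes were -0.29 and -0.91, a difference of 0.62 that did not pass (95% interval 0.23 to 1.01, limma adjusted p = 0.0673). It passed in 3 alternatives, without the first PC3 control (adjusted p = 0.0286), among genes of at least 5 TPM (0.0469) and with protein-coding genes alone (0.0155). The differences of EGR1 (-0.77, adjusted p = 0.174) and FOSL1 (0.48, adjusted p = 0.106) did not pass limma's test either, so a response of EGR1 restricted to PC3 was not shown. With protein-coding genes alone that of FOSL1 passed (0.0401). FOSL2 (0.46, adjusted p = 0.263) passed without the first PC3 control (0.0246).

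The make-up of the JUN family describes the same values within a library, where scaling between libraries drops out. JUNB transcripts were 3.74 and 3.81 times JUN transcripts in PC3 TRIB1 cells, against 1.38 and 1.40 times in PC3 control cells. In DU145 TRIB1 cells the ratio was 1.97 and 2.01, against 2.61 and 2.25 in DU145 control cells. The ratio was thus higher with TRIB1 in PC3 and lower with TRIB1 in DU145, with no overlap in either line. JUN took 17.1% and 16.7% of the summed JUN family TPM in PC3 TRIB1 cells, against 33.6% and 31.6% in PC3 control cells. JUND took 18.8% and 19.8% in PC3 TRIB1 cells, against 20.2% and 24.1% in PC3 control cells, and between 49.97% and 55.8% in the DU145 libraries. These ratios and shares are given as descriptions and were not tested.

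The make-up of the FOS family differed between the lines. FOSL1 held between 85.8% and 87.8% of the summed FOS family TPM in the 4 PC3 libraries and between 29.8% and 34.3% in the 4 DU145 libraries. FOSL2 held between 63.5% and 68.1% in DU145. FOS and FOSB together were the small remainder, with FOS at 1.86% or less of the family in any library. The summed family was 544 and 516 TPM in PC3 TRIB1 cells, against 614 and 741 TPM in PC3 control cells, and 151 and 148 TPM in DU145 TRIB1 cells, against 131 and 138 TPM in DU145 control cells.

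**Figure D3:**
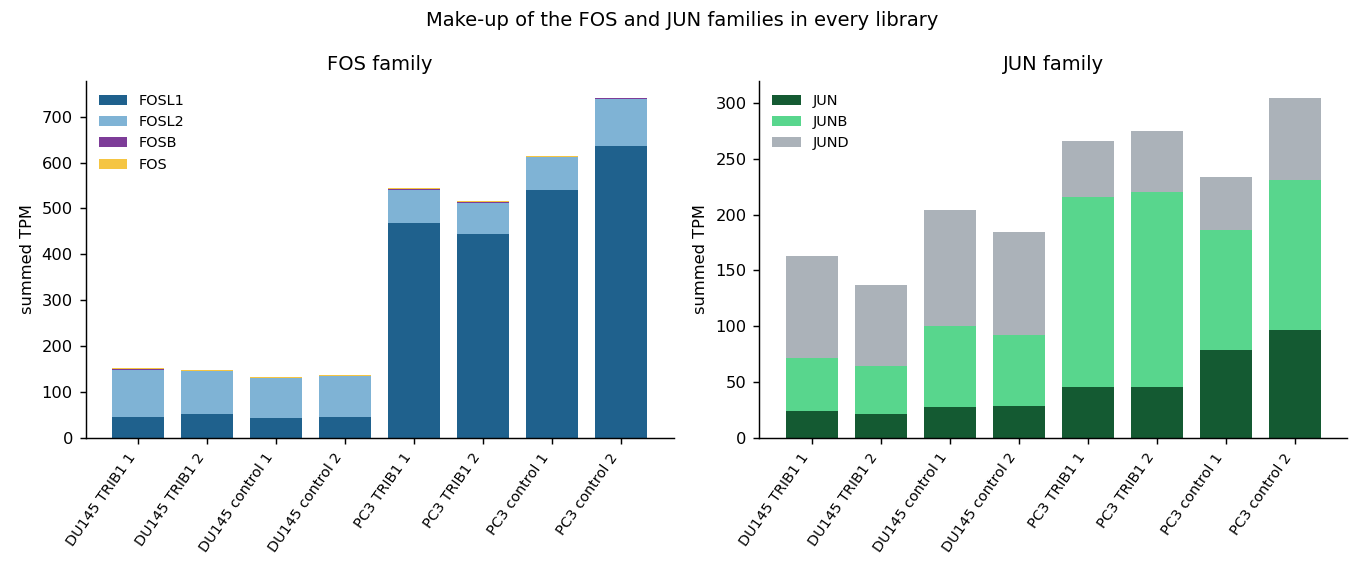
Summed TPM (y axes, linear from 0) of the FOS family (left) and the JUN family (right) in each of the 8 libraries (x axes), with each gene's TPM as a stacked part. FOSL1 holds 85.8% to 87.8% of the FOS family in PC3, and JUN holds 16.7% and 17.1% of the JUN family in PC3 TRIB1 cells, against 31.6% and 33.6% in PC3 control cells.

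Control PC3 against control DU145 asked how the lines differ before TRIB1 is added. These control libraries also enter the comparisons above. Of the 8 members 6 passed, 4 higher in PC3 and 2 lower, beside 47.0% of all genes tested (18.6% higher and 28.4% lower). The 4 include FOSB, which entered the test only through PC3 and did not pass without the minimum level. That is 4840 genes higher and 7376 lower, against 6175 and 5683 with median-of-ratios and 5798 and 5669 with upper-quartile scaling. The median log2 difference was 0.36 for the members and -0.18 over all genes. FOSL1 (ENSG00000175592, chromosome 11) was at 539 and 636 TPM in PC3 control cells, against 42.2 and 46.0 TPM in DU145 control cells. The ratio of the means was 13.3 and the log2 difference 3.70 (SE 0.10, 95% interval 3.45 to 3.96, limma adjusted p = 6.75e-06). A difference as high or higher was seen in 230 of the 25982 genes, and the difference of FOSL1 was between 3.58 and 3.93 in every alternative.

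JUN and JUNB were higher in PC3 control cells as well. JUN was at 78.5 and 96.2 TPM in PC3 control cells, against 27.7 and 28.4 TPM in DU145 control cells (ratio 3.11, log2 difference 1.60, limma adjusted p = 0.000132). JUNB had a ratio of 1.78 between the same groups (log2 difference 0.82, adjusted p = 0.00262). FOSB was at 1.77 and 2.41 TPM in PC3 control cells, against 0.620 and 1.03 TPM in DU145 control cells (log2 difference 0.76). It reached the minimum of 1 TPM for the test only in PC3, the line where it is higher, so the filter favours this direction and the difference is given as a description: limma's adjusted p was 0.0290 with the minimum and 0.0536 without it. It also exceeded 0.05 without the first DU145 control (0.0901) or the second PC3 control (0.0866) and with a replicate block (0.0630). FOSB lies within ERCC1 on the opposite strand but shares no exonic base with it in GENCODE 29.

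EGR1 and JUND were lower in PC3. EGR1 was at 0.314 and 0.560 TPM in PC3 control cells, against 2.86 and 2.48 TPM in DU145 control cells (ratio 0.164, log2 difference -1.36, limma adjusted p = 0.00289). In PC3 TRIB1 cells EGR1 stood at 2.21 and 2.37 TPM, just under the 2 DU145 controls. With a pseudocount of 0.1 TPM the difference between the control groups was -2.40, and without the minimum level it passed as well (limma adjusted p = 0.00733). JUND was at 47.2 and 73.4 TPM in PC3 control cells, against 104 and 92.2 TPM in DU145 control cells (log2 difference -0.72, limma adjusted p = 0.0373). Median-of-ratios scaling moved the median of all genes by 0.18 in this comparison and upper-quartile scaling by 0.17, and JUND did not pass with either (adjusted p = 0.126 and 0.147). The JUND call was also lost without any 1 library other than the second PC3 control (0.0616 to 0.177). FOSL2 did not pass, at 71.9 and 102 TPM in PC3 control cells, against 87.4 and 88.4 TPM in DU145 control cells, and its sign changed with these scalings (log2 difference -0.04 as deposited, 0.19 and 0.16 when scaled). It passed, as lower in PC3, without the second PC3 control (-0.29, limma adjusted p = 0.0394). FOS was at 1.05 and 0.706 TPM in PC3 control cells, against 1.23 and 2.27 TPM in DU145 control cells (log2 difference -0.53, limma adjusted p = 0.128). It passed without the first DU145 control (adjusted p = 0.0444).

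Other immediate early genes were read beside the members in PC3. Of 22 such genes, all tested, 6 rose and 1 fell in PC3 TRIB1 cells, beside 7.67% higher and 9.33% lower of all genes tested, and their median log2 change was 0.05. DUSP1, a phosphatase that switches off p38 and JNK, was at 24.0 and 24.9 TPM in PC3 TRIB1 cells, against 13.6 and 13.9 TPM in PC3 control cells (log2 change 0.79, limma adjusted p = 0.00205). ZFP36, which destabilises cytokine mRNAs, was at 14.5 and 14.1 TPM in PC3 TRIB1 cells, against 7.42 and 8.48 TPM in PC3 control cells (0.78, limma adjusted p = 0.00626). The other genes that rose were DUSP2, GADD45B, CCN1 and KLF6. Their calls were lost in 1 of 16, 3 of 17, 6 of 17 and 11 of 17 alternatives. CCN2 (CTGF), a matricellular growth factor gene, fell to 13.5 and 13.2 TPM in PC3 TRIB1 cells, against 24.7 and 23.0 TPM in PC3 control cells (-0.79, limma adjusted p = 0.00318). The classic early genes IER2, NR4A1 and MYC, chosen after their values were seen, did not pass in PC3. The count of 6 was 2 with the replicate block, 4 without the first PC3 control and 3 without either PC3 TRIB1 library.

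In DU145 an unadjusted limma p below 0.05 was seen in 15 of the same 22 genes, beside 4599 of all 25982 genes tested. After adjustment 2 rose and 2 fell, with a median of -0.08, beside 2.72% of all genes tested. These counts moved in both directions: 1 rose and 1 fell when a DU145 control, the second TRIB1 library of DU145 or a PC3 TRIB1 library was left out, 1 rose and 4 fell without either PC3 control, 0 rose and 1 fell with the block, 1 rose and 0 fell with that line alone, and 5 rose and 6 fell with protein-coding genes alone. HBEGF, an EGF receptor ligand gene, was at 45.7 and 43.9 TPM in DU145 TRIB1 cells, against 18.6 and 18.2 TPM in DU145 control cells (log2 change 1.24, limma adjusted p = 0.00282), a call lost with the replicate block alone (0.0689). IER3 fell to 84.9 and 75.4 TPM in DU145 TRIB1 cells, against 202 and 180 TPM in DU145 control cells (-1.24, limma adjusted p = 0.00441), a call lost with that line fitted alone (0.0594). ZFP36 fell in DU145 (-0.76, limma adjusted p = 0.0242), and the difference of its changes, -1.53, passed (adjusted p = 0.00521), though not with the replicate block (0.0646). The ZFP36 call in DU145 ended in 9 of 17 alternatives (adjusted p up to 0.150). CCN2 was at 58.03 and 55.1 TPM in DU145 TRIB1 cells, against 40.1 and 43.3 TPM in DU145 control cells. Its log2 change of 0.43 lay at the threshold (limma adjusted p = 0.0494) and lost the call in 13 of 17 alternatives, among them the omission of any 1 of the 8 libraries (up to 0.185). The difference of its changes, 1.22, passed (adjusted p = 0.00497) except with the replicate block (0.0638).

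**Figure D4:**
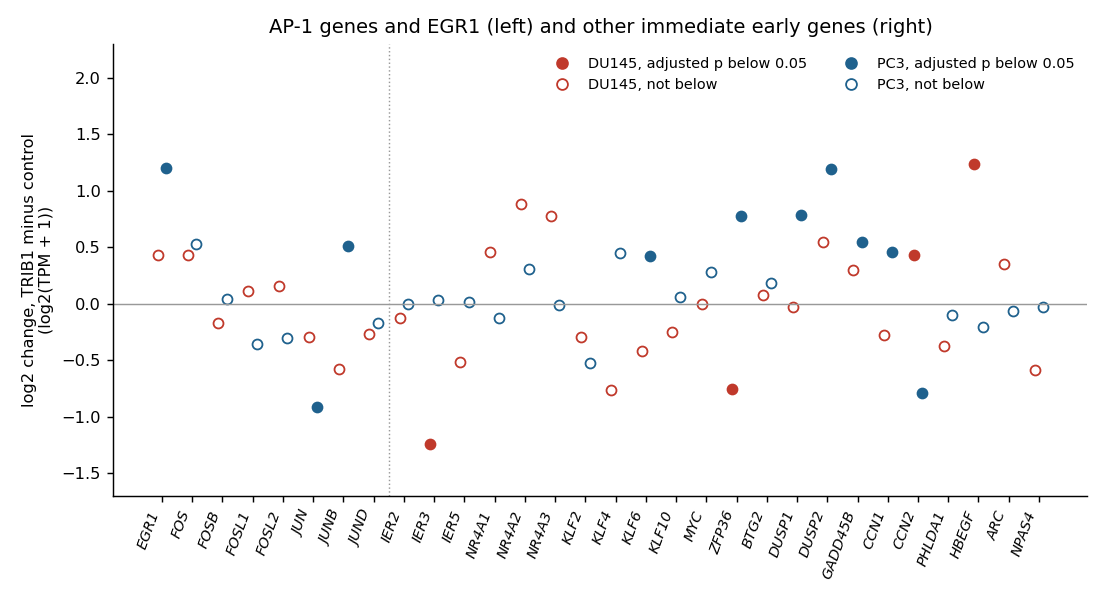
Log2 change of TRIB1 minus control on the log2(TPM + 1) scale (y axis) for the 8 members, left of the dotted line, and 22 other immediate early genes, right of it (x axis), in DU145 (red) and PC3 (blue); filled points have an adjusted p below 0.05. Among the PC3 points EGR1 is the highest (1.2), with DUSP2 just below it, and JUN is the lowest (-0.91). HBEGF in DU145 lies above EGR1 in PC3. ZFP36 and CCN2 are filled in both lines on opposite sides of 0, with DU145 calls that are lost in 9 and 13 of 17 alternatives.

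A list of 15 other bZIP genes held partners of JUN such as ATF2, ATF3 and JDP2 as well as CREB and MAF genes, and 12 of the 15 were expressed enough to test. In PC3 3 rose and 1 fell (median 0.04), beside 17.0% of all genes tested, and 5 rose with protein-coding genes alone. In DU145, where 2.72% of all genes passed, 0 changed by limma (median -0.18). An unadjusted p below 0.05 was seen in 3, beside 4599 of all 25982 genes tested. ATF3, a stress-induced repressor, was at 97.8 and 92.2 TPM in PC3 TRIB1 cells, against 25.2 and 26.3 TPM in PC3 control cells (log2 change 1.84, limma adjusted p = 0.000761). JDP2, a repressor that binds JUN, was at 6.41 and 6.91 TPM in PC3 TRIB1 cells, against 1.499 and 2.35 TPM in PC3 control cells (1.41, limma adjusted p = 0.00683), a call lost without the second PC3 TRIB1 library (0.0546). ATF1 rose (0.51), a call lost without the first PC3 TRIB1 library and with the replicate block. ATF2, a JNK substrate, fell (-0.42), a call lost in 5 of 17 alternatives. These were each line fitted alone, the replicate block, and the omission of the first PC3 control or 1 of the PC3 TRIB1 libraries. The difference between the lines passed for ATF3 (-2.11, limma adjusted p = 0.00192). It also passed for ATF1 (limma adjusted p = 0.0308) and JDP2 (0.0318), calls lost in 8 and 9 of 16 alternatives.

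The genes around EGR1 and JUN were read in the same way. The EGR corepressor genes NAB1 and NAB2 and the family members EGR2 and EGR3 did not pass limma's test in either line, and EGR4 was too low to test. With protein-coding genes alone 1 of these 4 fell in DU145, beside 892 of all 14577 genes. In that setting 1 also passed with a negative difference between the lines, beside 1983 of all 14577. An unadjusted p below 0.05 was seen in 2 of these 4 in DU145 and 0 in PC3. Over all 25982 genes tested it was seen in 4599 in DU145 and 7959 in PC3. Of the genes of serum response factor and its 5 cofactors, ELK3 rose in PC3 (log2 change 0.44, limma adjusted p = 0.0425, lost in 11 of 17 alternatives; 17.0% of all genes passed) and 0 changed in DU145, where 1 had an unadjusted p below 0.05. SRF itself was at 31.3 and 26.6 TPM in PC3 TRIB1 cells, against 27.4 and 40.5 TPM in PC3 control cells. Of 15 genes of the ERK, JNK and p38 route 1 rose and 3 fell in PC3, beside 17.0% of all genes tested. In DU145 0 changed by limma, beside 2.72%, and 5 had an unadjusted p below 0.05. Without either PC3 TRIB1 library the PC3 counts were 0 and 1, and without the second PC3 control or a DU145 control 0 and 2. RPS6KA1, an ERK-activated kinase gene, fell (-0.62, limma adjusted p = 0.00549), a call kept in all 17 alternatives. MAP2K1, which encodes an activator of ERK, fell as well (-0.49, lost in 4 of 17 alternatives). MAPK8, which encodes JNK1, rose (0.59, lost in 9 of 17 alternatives).

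Of 10 genes of JUN protein turnover 1 rose and 0 fell in PC3 by limma, beside 17.0% of all genes tested. This gene was DDB1, a subunit gene of the ligase scaffold (log2 change 0.32, limma adjusted p = 0.0191, lost in 6 of 17 alternatives). The count depended on the setting: 4 rose with median-of-ratios scaling, 4 rose and 1 fell among genes of at least 5 TPM or with protein-coding genes alone, 2 rose without the first PC3 control, and 0 rose without the second PC3 control, without the first PC3 TRIB1 library, without a trend, with the block or with each line alone. Besides, 1 fell without either DU145 TRIB1 library or with each line alone. In DU145 0 of the 10 changed by limma, with 4 at an unadjusted p below 0.05, beside 4599 of all 25982 genes tested. COP1 was at 3.24 and 3.90 TPM in PC3 TRIB1 cells, against 3.32 and 5.46 TPM in PC3 control cells, which overlap. It was at 26.1 and 25.2 TPM in DU145 TRIB1 cells, against 28.7 and 30.3 TPM in DU145 control cells, and did not pass in either line. Between the controls COP1 was lower in PC3 (log2 difference -2.53, limma adjusted p = 0.0002).

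A list of 18 genes known as AP-1 targets held 16 that could be tested. In PC3 7 rose and 5 fell (median log2 change 0.18), beside 7.67% and 9.33% of all genes tested. In DU145 0 rose and 5 fell (median -0.11), beside 0.712% and 2.01%. An unadjusted limma p below 0.05 was seen there in 7 of the 16, beside 4599 of all 25982 genes tested. The protease gene PLAU was at 1359 and 1286 TPM in PC3 TRIB1 cells, against 780 and 685 TPM in PC3 control cells (0.85, limma adjusted p = 0.00316), a call kept in all 17 alternatives. The other genes that rose were MMP1 (1.24), MMP9 (0.81), MMP10 (0.91), MMP13 (0.82), IL6 and CXCL8, and those that fell were TIMP1 (-0.60), AXL (-0.58), VEGFA (-1.07), CCL2 (-0.81) and LIF. MMP9, MMP10 and MMP13 averaged 2.98, 6.46 and 2.44 TPM in PC3 TRIB1 cells, against 1.27, 3.01 and 0.952 TPM in PC3 control cells. MMP13 thus reached the minimum of 1 TPM only in PC3 TRIB1 cells, so the filter favours its rise. The 7 that rose include MMP13, whose rise is given as a description. Calls were lost in 10 of 17 alternatives for MMP10 (adjusted p up to 0.315), 11 of 17 for CCL2, 6 of 16 for MMP9, 5 of 16 for MMP13, 4 of 17 each for TIMP1 and AXL, 2 of 17 for VEGFA and 1 of 17 for MMP1. LIF, IL6 and CXCL8 had the smallest p in PC3. IL6 and CXCL8 rose by 2.58 and 2.22, and LIF fell by 1.37 on the log2 scale. In DU145 IL6 fell by 2.17, CCL2 by 2.03, CXCL8 by 1.70, VEGFA by 1.41 and LIF by 0.65 on the log2 scale, calls lost in 2, 3, 6, 8 and 2 of 17 alternatives. The 7 that rose in PC3 became 3 with a pseudocount of 0.1 TPM and 4 with the replicate block, with each line fitted alone, without the second PC3 control or without the first PC3 TRIB1 library. The 5 that fell in PC3 became 1 without the first PC3 TRIB1 library, 2 without the second, and 3 without the second PC3 control, with the block or with each line alone. In DU145 the 5 became 2 and 3 without the first and second control, 3 without either PC3 TRIB1 library, 1 with that line alone and 0 with the block. Of 7 EGR1 target genes 3 rose and 1 fell in PC3 (median -0.08), beside 17.0% of all genes tested, with THBS1 at 1.27, FN1 at 0.79 and TGFB1 at -0.73, and in DU145 THBS1 rose (0.73) and FN1 fell (-0.95). The calls of TGFB1 in PC3 and of THBS1 in DU145 were each lost in 10 of 17 alternatives, and that of FN1 in DU145 in 6. An unadjusted limma p below 0.05 was seen in 3 of these 7 genes in DU145.

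The genes most like each abundant member over the 8 libraries were found by Pearson's r of log2(TPM + 1) among 11963 protein-coding genes. The points share 4 groups of 2, so a gene that follows the line alone correlates highly, and 1229 genes exceeded 0.95 with FOSL1. For FOSL1 the first 3 were SLC16A14, ADAM19 and SLC6A8 (r = 0.999 each). For JUN they were GPRC5C, SDF4 and COL6A2 (r = 0.999, 0.998 and 0.996), with 434 genes above 0.95, and for JUNB they were BTBD6, RAB27B and LIPT1 (0.996, 0.993 and 0.993), with 470. For FOSL2 and JUND 8 and 41 genes were above 0.95. SBF1, HSPA1B and PITPNM1 stood closest to FOSL2 (0.992, 0.988 and 0.977) and MEN1, CDIPT and CLSTN3 to JUND (0.995, 0.984 and 0.982). Like FOSL2 and JUND, each of these 6 was higher in the second PC3 control than in the first.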

How the data were processed

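RNA sequencing of 8 libraries was read from 1 deposited table of TPM values per gene, made by the authors before deposit, in which each column sums to 1000000. Per the labels' protocols, RNA was isolated with TRIzol and sequenced from NEB Ultra libraries. Tools named in the submitters' processing notes are edgeR, DESeq, HTSeq and TopHat2 2.0.14, with hg38 as the build. The tool behind the TPM values, the annotation and the strand setting are unknown here. Listed starts match GENCODE 29 (GRCh38) for 365 of 52338 identifiers, so the listed intervals were not used. Identifiers were given current symbols, which finds COP1 under RFWD2 and CCN2 under CTGF.

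The 25982 genes whose mean reached 1 TPM in some group entered 1 fit of log2(TPM + 1) in limma 3.58.1 under R 4.3.3, with a trend of variance on level, 4 group means, 4 residual and 1.89 prior degrees of freedom. p-values were adjusted by Benjamini-Hochberg over all genes tested. All 8 members entered, FOSB only through PC3, and FOS, FOSB and EGR1 not under a minimum of 5 TPM. The fit was tested on simulated data, with changes set in genes over 5 TPM. On the scale of the fit these were larger than any change of a member with TRIB1. That test does not speak to smaller changes, to lower genes or to a spread that is technical only. Groups came from the sample titles. The alternatives were other pseudocounts, minimums and scalings, no trend, each line alone, a replicate block, each library left out, and protein-coding genes alone, which was added after the data were seen. Named genes are the members, TRIB1, of each list the 3 with the smallest p past the test, and the 3 genes most correlated with each member over 5 TPM. MMP, TIMP1, AXL, VEGFA and ATF2 values, CXCL8 in DU145, CCN2 in DU145, IER2, NR4A1, MYC, SRF and COP1 were named after their values were seen. So were DUSP2, GADD45B, CCN1 and KLF6. The members and lists were chosen with earlier results of these data known. Promoter sequences are from RefSeq (GRCh38.p14).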

Additional observations from a re-analysis of the deposited data

Results flagged for a closer look

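The change of JUNB with TRIB1 differed between the 2 lines by the test of the difference itself: its log2 change was -0.58 in DU145 and 0.51 in PC3, a difference of -1.08 (limma adjusted p = 0.0208). Both TRIB1 libraries lay below both controls in DU145 and above both controls in PC3. The call of the difference was lost without any 1 library other than a PC3 control (adjusted p 0.0519 to 0.0794). JUNB shares 259 exonic bases with HOOK2 on the opposite strand, whose part in the value was not tested.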

How the results depend on the processing

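Of the members, 0 changed in DU145 and with protein-coding genes alone 1 (JUNB); leaving out single libraries gave 0 throughout. In PC3 3 changed, and 1 (JUN) with each line fitted alone or with the replicate block; leaving out single libraries gave 1 to 3. For the difference between the lines 1 passed, against 2 among genes of at least 5 TPM, 3 with protein-coding genes alone, 0 with the replicate block and 0 to 3 with single libraries left out. Between the controls 6 passed, and 4 to 6 under the alternatives. Signs turned only for members that did not pass. With single libraries left out FOSB in PC3 was -0.11 (first control) to 0.19 (also -0.04 without the second TRIB1 library), JUND in PC3 -0.48 to 0.14 (second control), the difference between the lines of FOS -0.37 to 0.18 (second DU145 control; also 0.03 without the second PC3 control and 0.0095 without the first PC3 TRIB1 library), that of JUND -0.41 to 0.22 (first PC3 control; also 0.06 without the second DU145 TRIB1 library), and FOSL2 between the controls -0.29 (second PC3 control) to 0.21 (first PC3 control), with 0.19 under median-of-ratios and 0.16 under upper-quartile scaling. TRIB1 kept its call in each line under all alternatives. Whether the replicate numbers pair the libraries is not in the labels. Deviations of same-numbered libraries correlated at -0.04 in DU145 and -0.01 in PC3. These values show no strong shared deviation over all genes, but they cannot show that the libraries are unpaired.

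Over all genes the count of changed genes was 707 in DU145, 352 with upper-quartile scaling, 52 with that line alone, 11 with the replicate block, 1363 with protein-coding genes alone and 253 without either PC3 TRIB1 library. In PC3 it was 4415, 2156 with that line alone, 1735 with the block and 2091 or 2042 without a PC3 TRIB1 library. For the difference it was 2434, 74 with the block, 3769 with protein-coding genes alone and 1275 to 1420 without a DU145 control or a PC3 TRIB1 library. The causes were not tested.

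FOS, FOSB and EGR1 were low, and without library depth the counting error of their values is unknown.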
